A study of Mus musculus with 2 samples.

Results

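In a chromatin immunoprecipitation and sequencing (ChIP-seq) profile of Sap130 from the embryonic mouse heart, 1151 of the 16697 deposited peaks (6.89%) had their midpoint in an intron more than 1000 bp downstream of a transcription start site. These intronic peaks were chosen by position alone. The table names a transcript, with its strand, span and exons, for 15171 peaks. A peak was taken when its midpoint lay more than 1000 bp downstream of that transcript's start, inside the transcript, and outside all its exons. The study holds 1 library precipitated with a rabbit Sap130 antibody from E13.5 embryonic heart and 1 input library, not precipitated, whose age is labelled E13.6. Both came from B6 wild-type mice. Peaks were called on the ChIP library against the input, so no group has a replicate and no difference was tested between hearts. The deposited table gives positions only, with no peak height, fold enrichment, p-value or read count, and the depth of the libraries is unknown. Positions are on mm10 (GRCm38), printed as deposited and uncertain by 1 bp. Intervals in parentheses are 95% intervals, exact Clopper-Pearson for shares, exact Poisson for densities and order statistics for medians. They cover counting error only.

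Sap130 is a subunit of the Sin3 complex, a corepressor assembly that carries histone deacetylases to chromatin. The complex reaches genes largely through sequence-specific factors such as the MXD repressors. The introns close to a start site, above all the first intron, often hold enhancers and further start sites, and in heart genes several well-known control regions lie there. The intronic peaks were named for 947 genes. Accessions tied 1142 of them to the RefSeq gene table of assembly GRCm38.p6, current symbols another 6 and older symbols 2, which left 1 without a match. In all, 1124 were named for protein-coding genes and 26 for long non-coding RNA genes.

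Some intronic peaks lay over a second, internal start site of the same gene, and the sequences of these sites show what kind of DNA the peaks covered. Shown are the 250 bases just before the start, from RefSeq GRCm38.p6, each lying whole inside an intronic peak. The first 6 are second starts, and the last 2 are the named starts of Tbx20 and Meis1, inside the second and the third widest intronic peak. Capitals mark matches, on either strand, to the GC box GGGCGG, the E-box CACGTG and the CCAAT box (its 5 letters). The TATA box letters TATAAA and the GATA-factor motif AGATAA were searched in the same way. A match was counted whether or not it overlapped another.
Kmt5a second start, chr5:124445249-124445498, + strand: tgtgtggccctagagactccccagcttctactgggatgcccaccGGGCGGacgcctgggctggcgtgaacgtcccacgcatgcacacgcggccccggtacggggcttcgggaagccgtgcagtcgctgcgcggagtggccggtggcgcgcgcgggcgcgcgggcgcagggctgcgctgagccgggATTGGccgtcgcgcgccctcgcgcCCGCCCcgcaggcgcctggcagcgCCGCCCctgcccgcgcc
Hmgb1 second start, chr5:149051617-149051866, - strand: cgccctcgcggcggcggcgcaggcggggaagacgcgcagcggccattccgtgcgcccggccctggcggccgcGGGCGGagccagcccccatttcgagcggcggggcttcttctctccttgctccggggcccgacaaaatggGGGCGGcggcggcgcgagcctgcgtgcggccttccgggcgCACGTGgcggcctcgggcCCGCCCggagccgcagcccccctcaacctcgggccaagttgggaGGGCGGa
Tgfbrap1 second start, chr1:43092487-43092736, - strand: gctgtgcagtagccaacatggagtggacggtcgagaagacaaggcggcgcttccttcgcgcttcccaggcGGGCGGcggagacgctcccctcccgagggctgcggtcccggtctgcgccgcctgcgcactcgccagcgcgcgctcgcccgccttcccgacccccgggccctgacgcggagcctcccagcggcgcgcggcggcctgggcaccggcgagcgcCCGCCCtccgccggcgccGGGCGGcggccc
Bcl2l11 second start, chr2:128127325-128127574, + strand: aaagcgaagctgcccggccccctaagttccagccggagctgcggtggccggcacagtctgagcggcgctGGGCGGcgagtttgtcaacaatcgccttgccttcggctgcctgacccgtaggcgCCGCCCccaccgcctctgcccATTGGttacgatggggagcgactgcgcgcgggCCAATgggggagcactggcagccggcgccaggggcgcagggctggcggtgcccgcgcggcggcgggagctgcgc
E2f3 second start, chr13:29984392-29984641, - strand: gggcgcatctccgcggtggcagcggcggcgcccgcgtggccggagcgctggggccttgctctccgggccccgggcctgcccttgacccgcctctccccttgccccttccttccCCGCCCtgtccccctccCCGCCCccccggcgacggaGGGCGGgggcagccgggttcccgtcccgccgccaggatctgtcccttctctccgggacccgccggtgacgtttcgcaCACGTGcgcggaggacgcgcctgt
Csrnp1 second start, chr9:119983024-119983273, - strand: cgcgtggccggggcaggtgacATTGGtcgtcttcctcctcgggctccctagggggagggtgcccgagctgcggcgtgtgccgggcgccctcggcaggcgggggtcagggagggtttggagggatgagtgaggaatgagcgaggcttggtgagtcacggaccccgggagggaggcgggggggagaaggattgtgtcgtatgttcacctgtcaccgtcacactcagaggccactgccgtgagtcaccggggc
Tbx20 named start, chr9:24774304-24774553, - strand: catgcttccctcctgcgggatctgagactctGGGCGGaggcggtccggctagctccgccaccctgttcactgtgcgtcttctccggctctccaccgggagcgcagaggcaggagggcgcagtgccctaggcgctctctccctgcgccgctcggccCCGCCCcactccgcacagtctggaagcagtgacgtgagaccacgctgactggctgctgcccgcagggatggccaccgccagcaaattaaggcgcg
Meis1 named start, chr11:19018970-19019219, - strand: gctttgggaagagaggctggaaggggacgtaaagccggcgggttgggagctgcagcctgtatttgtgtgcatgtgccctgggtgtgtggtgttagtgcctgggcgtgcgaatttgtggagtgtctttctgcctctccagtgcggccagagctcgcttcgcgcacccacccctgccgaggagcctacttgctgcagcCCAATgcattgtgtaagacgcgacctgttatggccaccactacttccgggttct

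G and C make up between 59.6% (Meis1) and 79.2% (Tgfbrap1) of the letters in these 8 windows, against a median of 52.4% over all RefSeq windows. Kmt5a (Setd8 in the table) encodes the methyltransferase for lysine 20 of histone H4, Hmgb1 a DNA-bending chromatin protein, Tgfbrap1 a protein that binds TGF-beta receptors, Bcl2l11 the pro-apoptotic protein Bim, E2f3 a cell cycle transcription factor and Csrnp1 a nuclear protein induced by axin. The Kmt5a window holds 39 CpG dinucleotides and 3 GC boxes. The Hmgb1 window holds 39 CpG, 4 GC boxes and 1 E-box, and the Tgfbrap1 window 41 CpG and 3 GC boxes. The Bcl2l11 window holds 30 CpG, 2 GC boxes and 2 CCAAT boxes, and the E2f3 window 33 CpG, 3 GC boxes and 1 E-box. The Csrnp1 window has the fewest CpG of the 6 second starts shown, 20, with 1 CCAAT box and no GC box. The Tbx20 window has 22 CpG and 2 GC boxes, and the Meis1 window 13 CpG, 1 CCAAT box and no GC box.

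Among all 32851 RefSeq windows of this length, 32.7% hold a GC box, 6.02% an E-box, 33.8% a CCAAT box, 12.4% TATAAA and 9.99% AGATAA. Among the 5606 windows that lay whole inside promoter peaks (midpoint within 1 kb of the named start), the shares are 68.3%, 11.2%, 28.2%, 3.39% and 2.71% in the same order. Intronic peaks held 44 windows whole, 15 of which belong to a second start of the peak's own gene, more than 1000 bp from the named one. Of these 15, 14 (93.3%) hold a GC box, 3 (20%) an E-box, 6 (40.0%) a CCAAT box and 0 either TATAAA or AGATAA. Over all 44 windows in intronic peaks the shares were 77.3%, 6.82%, 25%, 0 and 0 in the order above. Over the 12 whose RefSeq start equals the named start to the base they were 58.3%, 0, 16.7%, 0 and 0. The 3 with an E-box are those of Hmgb1, E2f3 and Slc27a1, a fatty acid transporter. A match is a description of the letters and not a binding site.

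CpG content placed the starts inside intronic peaks with those inside promoter peaks. The median was 24.0 CpG per window (quartiles 21.0 and 33.0) for the 44 windows in intronic peaks, against 22.0 (17.0 and 29.0) in promoter peaks and 6 (2 and 16) over all windows. For the 15 second starts it was 27.0, with a lowest value of 10 in Slc27a1 and a highest of 41 in Tgfbrap1. For the 12 windows whose RefSeq start equals the named start it was 23.5, from 12 in Erbb4, a neuregulin receptor, to 53 in Ski, a corepressor of SMAD proteins. No window in an intronic peak had fewer than 10 CpG.

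**Figure D1:**
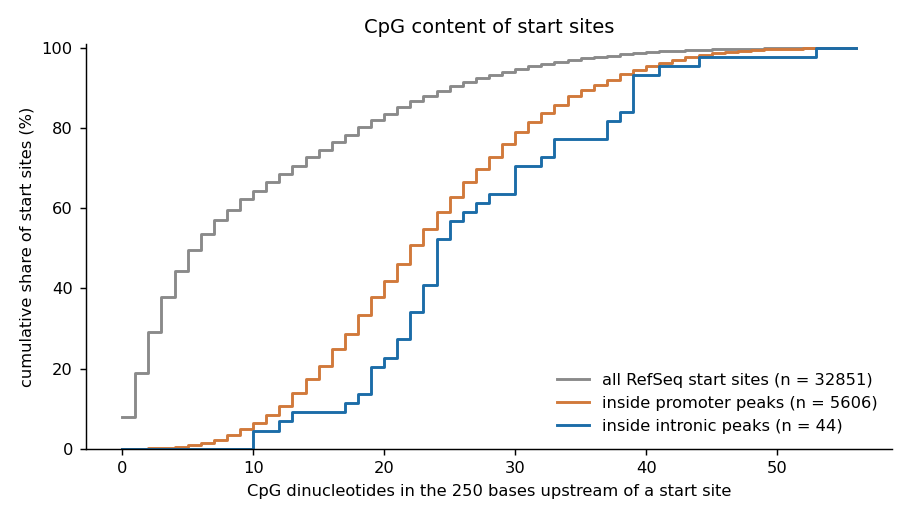
Cumulative share of start sites (y axis, %) by the number of CpG dinucleotides in the 250 bases upstream (x axis), for all RefSeq start sites and for those inside promoter peaks or inside intronic peaks. The curve for the 44 windows in intronic peaks runs close to and slightly right of that for promoter peaks, with medians of 24.0 and 22.0, and both lie well right of the curve for all windows, whose median is 6.

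The intronic peaks crowded towards the start site. Their midpoints lay a median of 1685 bp downstream (1610 to 1744), with quartiles of 1271 and 2492 bp and a farthest value of 9776 bp. Of the 1151, 706 (61.3%, 58.5 to 64.2) lay within 2000 bp and 941 (81.8%) within 3000 bp, while 92 (7.99%) lay beyond 5000 bp. Nearest above the 1000 bp limit were peaks of Gapvd1 and Baz2b, both at 1000.5 bp, and Zmiz1 at 1001 bp. Nearest below it were intronic peaks of Zfp710 at 999 bp, Yy1 at 997 bp and Prr5l at 996.5 bp. Farthest were peaks of Hdac9, a class IIa histone deacetylase, at 9776.5 bp, Klhl7 at 9640 bp and Pth1r, the parathyroid hormone receptor, at 9570 bp.

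Set against the amount of intron there is at each distance in the 11836 transcripts named in the table, the density fell in the same way. It was 67.8 peaks per Mb of intron (62.9 to 73.0) between 1000 and 2000 bp and 23.2 (20.3 to 26.4) in the next kb. It then went from 7.25 (5.66 to 9.15) between 3000 and 4000 bp to 1.00 (0.434 to 1.98) between 9000 and 10000 bp. Upstream of the start sites it was lower at first, 22.2 (19.6 to 25.1) between 1000 and 2000 bp, and fell less, to 3.72 (2.70 to 4.99) in the last kb. Intron and upstream intervals overlapped in each bin from 3000 to 9000 bp and lay apart in the first 2 bins and in the last.

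The first intron held most of the intronic peaks, 917 of 1151 (79.7%, 77.2 to 82.0). It makes up 58.0% of the intron sequence 1 to 10 kb downstream, but a larger part near the start, where most peaks lay. First introns were 8.20 of 10.4 Mb of intron between 1000 and 2000 bp, and 6.99 of 10.1 Mb between 2000 and 3000 bp. The shares of 79.7% and 58.0% are therefore not like for like, and the densities by distance below compare the introns instead. The second intron held 156 and the third 37. Between 1000 and 2000 bp the density was 74.8 per Mb (69.0 to 80.9) in first introns and 42.1 (34.0 to 51.5) in later introns, and between 2000 and 3000 bp 27.3 (23.6 to 31.5) and 14.0 (10.2 to 18.8). From 3000 bp on, the intervals of first and later introns overlapped in every bin. Exons at these distances, 8.88% of the transcript sequence, held 42.8 peaks per Mb (38.4 to 47.6), against 14.0 (13.2 to 14.8) in introns. The introns with a peak had a median length of 9031 bp (8094 to 10232), and the midpoint lay a median of 1082 bp (1045 to 1140) past the intron's first base. Lengths of introns without a peak were not computed, so this length has no comparison.

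**Figure D2:**
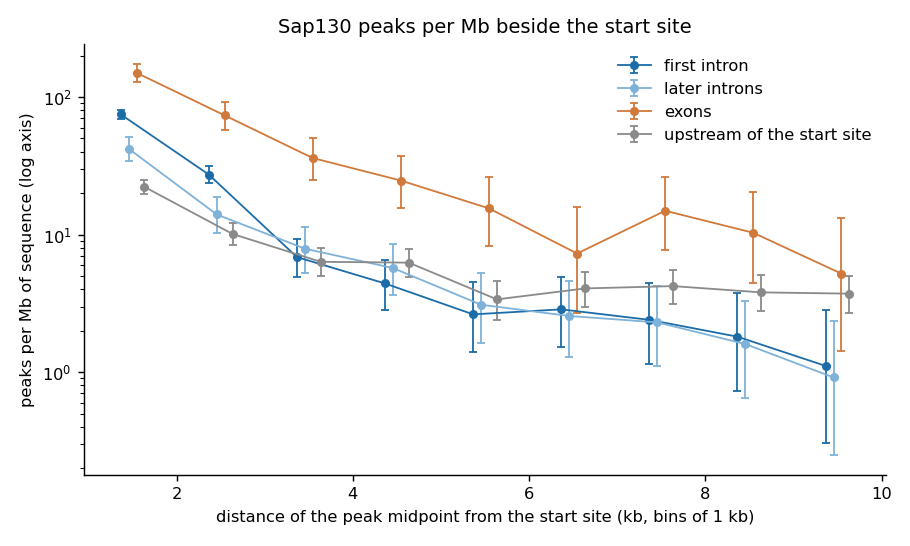
Peaks per Mb of sequence (y axis, log scale) against the distance of the peak midpoint from the start site in bins of 1 kb (x axis), for first introns, later introns, exons and sequence upstream of the start; points are densities and bars 95% exact Poisson intervals. First introns start at 74.8 per Mb and later introns at 42.1, and beyond 3 kb the intron curves run together, below the exons.

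The label intronic held for midpoints and, less strictly, for whole peaks. Of the 1151 intervals, 183 (15.9%, 13.8 to 18.1) touched an exon of the named transcript and 882 (76.6%) lay whole beyond 1000 bp. The named start site itself lay inside 51 (4.43%, 3.32 to 5.78). A further 26 held another start of the same gene more than 1000 bp from the named one, and 9 a start of another gene. The remaining 1065 (92.5%, 90.9 to 94.0) held no counted start. RefSeq starts of the same gene within 1000 bp of the named one were not counted. The 1065 can therefore include peaks over such a start. Counting peaks that also covered the named start, 29 (2.52%) held a second start more than 1000 bp away. No intronic midpoint was closer than 1 kb to a start used elsewhere in the table. How the 1 transcript per peak was chosen is not stated, and whether that choice fixes this result was not tested.

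Most intronic peaks were narrow. Their median width was 370 bp (349 to 388), with quartiles of 259 and 628 bp and extremes of 207 and 5429 bp, and 419 (36.4%) were under 300 bp. The median was 785 bp (775 to 797) for promoter peaks, 469 bp (421 to 514) for exonic peaks beyond 1 kb and 416 bp (392 to 439) for upstream peaks 1 to 10 kb away. The interval of the intronic median lay below these 3. The 157 peaks centred beyond the end of the named transcript had the same median, 370 bp (331 to 432). A second, smaller set was broad, with 69 (5.99%, 4.69 to 7.53) at least 2000 bp wide, against 9.01% (6.21 to 12.5) of exonic peaks, 4.08% (3.75 to 4.44) of promoter peaks and 0.659% (0.214 to 1.53) of upstream peaks. The 51 that reach back over the named start have to be broad, since their midpoint is more than 1000 bp away. Their median width was 2778 bp, against 348 bp for the 1065 with no counted start and 670 bp for the 26 over a second start alone.

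The widest intronic peak was that of Smad6, an inhibitor of BMP signalling expressed in the developing valves, at 5429 bp. Next came Tbx20, a T-box factor needed for heart growth, at 4624 bp, and Meis1, a homeodomain factor, at 4419 bp. Tnrc18 (4118 bp), the endosomal sorting protein Snx18 (4064 bp), the chromatin remodelling ATPase Smarca2 (3710 bp), the actin-bundling protein Fscn1 (3535 bp) and the growth factor feedback inhibitor Spry2 (3511 bp) followed. All 8 covered the named start and ran into the first intron.

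The intronic peaks stood late in the authors' table. What the rows are ordered by is unknown, so a position is only a place in that table. The median position was 13923 of 16697 (13691 to 14115), against 6811 (6689 to 6939) for promoter peaks, 11855 for upstream and 12218 for exonic peaks. Among the first 8348 positions were 159 (13.8%, 11.9 to 15.9), against 60.3% of promoter peaks, 20% (17.2 to 23.1) of upstream, 18.9% (14.9 to 23.4) of exonic peaks and 9.55% (5.45 to 15.3) of those beyond the transcript. Cut into 10 equal parts, the table held 14 intronic peaks (0.838%) in the first and 368 (22.0%) in the last. Position differed by what the peak covered. The median was 4596 for the 51 over the named start, 9062 for the 26 over a second start and 14127 for the 1065 with no counted start. These groups differed in width too, with medians of 2778, 670 and 348 bp, and position was not compared at equal width. Of the 51, 49 were among the first 8348 positions, and of the 1065, 96 (9.01%).

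**Figure D3:**
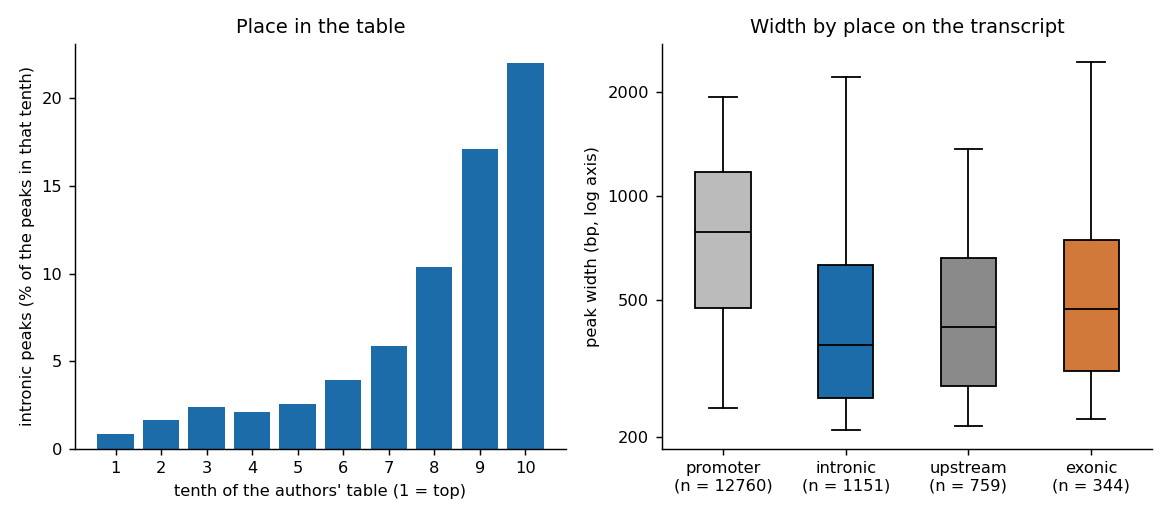
Left, the share of peaks that are intronic (y axis, %) in each of 10 equal parts of the authors' table (x axis, 1 at the top); right, peak width in bp (y axis, log scale) by class, with boxes at the quartiles, a line at the median and whiskers at percentiles 5 and 95. The intronic share goes from 0.838% to 22.0%, and the intronic box has the lowest median of the 4 classes drawn, 370 bp.

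First in the table among the intronic peaks was the one over the second start of Kmt5a, at position 129, spanning chr5:124445000-124446617 at the end of the first intron, 5878.5 bp downstream of the named start. Peaks of Hnrnpu, a nuclear RNA-binding protein (position 230), Mex3d (532), the LIM protein Crip2 (690) and the ubiquitin ligase adaptor Klhl21 (728) came next, and all 4 reached back over the named start. Then followed the RNase P subunit Pop5 (785), Hnrnpul2 (788), the cardiac calcium release channel Ryr2 (959), the transcriptional repressor Spen (1003) and Btbd19 (1080). The first 5 intronic peaks whose gene had no promoter peak were those of Hnrnpu, Crip2, Hnrnpul2, Ryr2 and Spen. All 5 lay at the start all the same: those of Hnrnpu, Crip2 and Spen covered it. Those of Hnrnpul2 and Ryr2 began 136 and 49 bp past it. The Ryr2 peak was 2627 bp wide, and no other peak lay within 150343 bp of it.

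Few intronic peaks stood alone. The gap to the nearest other peak was a median of 237 bp (216 to 255; quartiles 121 and 738), against 589 bp for exonic, 689 bp for upstream and 12276 bp for promoter peaks, and in 797 (69.2%, 66.5 to 71.9) it was under 500 bp. The nearest other peak was a promoter peak for 831 (72.2%) and another intronic peak for 257 (22.3%). For 755 (65.6%, 62.8 to 68.3) it was a promoter peak of the same gene, in 556 of them (48.3% of all) less than 500 bp away. A neighbour was more than 5000 bp away for 119 (10.3%). How far the caller split one enriched region into several intervals was not tested, since no signal between the peaks was used here.

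A promoter peak of the same gene accompanied 996 of the 1151 (86.5%, 84.4 to 88.5). By gene this was 817 of 947 (86.3%, 83.9 to 88.4), against 11008 of all 11494 genes with a named peak (95.8%, 95.4 to 96.1). These sets are formed differently, so the 2 shares are not like for like. The 947 enter through an intronic peak, whereas 8851 of the 11494 (77.0%) have only 1 named peak, of any class. A promoter peak accompanied 25 (49.0%) of the 51 peaks that covered the named start themselves, and 947 (88.9%) of the 1065 with no counted start. The share was 89.0% for peaks 1000 to 2000 bp downstream and 70.7% (60.2 to 79.7) for the 92 beyond 5000 bp. An intronic peak was the only named peak of its gene in 96 cases (8.34%). At least 3 named peaks were found in 370 of the 947 genes (39.1%, 35.9 to 42.3), against 5.95% (5.53 to 6.40) of all genes with a named peak. A gene with a promoter peak and an intronic peak has at least 2 by construction.

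Of the 947 genes, 788 had 1 intronic peak, 128 had 2, 19 had 3, 10 had 4 and 2 had 5. The 2 with 5 were Flrt2, a cell adhesion protein needed in the epicardium, and Gata4, a zinc finger factor at the core of the cardiac programme. In Flrt2 all 5 lay in the first intron, from 2019.5 to 4927 bp downstream, with widths from 240 to 894 bp. In Gata4 3 lay in the first intron, at 1587, 2427.5 and 2852.5 bp, and 2 in the second, at 6685.5 and 8285.5 bp, beside a promoter peak of 1975 bp. These counts depend on how finely the peaks were split. With intronic peaks of a gene less than 500 bp apart joined, Gata6 had 4, Gata4 3, Grb10, Irs1, Mecom, Tbx20, Tbx5 and Zfp608 2 each, and Flrt2, Meis1, Tsc22d2 and Ube2h 1 each. Those with 4 before joining were Gata6, Grb10, Irs1, Mecom, Meis1, Tbx20, Tbx5, Tsc22d2, Ube2h and Zfp608. They include further cardiac factors (Gata6, Meis1, Tbx20, Tbx5), adaptors of insulin signalling (Grb10, Irs1) and the zinc finger factor Mecom. In Tbx20 the 4624 bp peak over the start was followed by peaks of 309, 348 and 263 bp in the third intron, 5339.5 to 6318.5 bp downstream. In Tbx5, a dosage-sensitive regulator of the chambers, peaks lay at 1045, 2423, 4887 and 5431.5 bp in introns 1 to 3. In Irs1 all 4 were in the first intron, at 5029.5 to 8064.5 bp, past the long first exon.

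**Figure D4:**
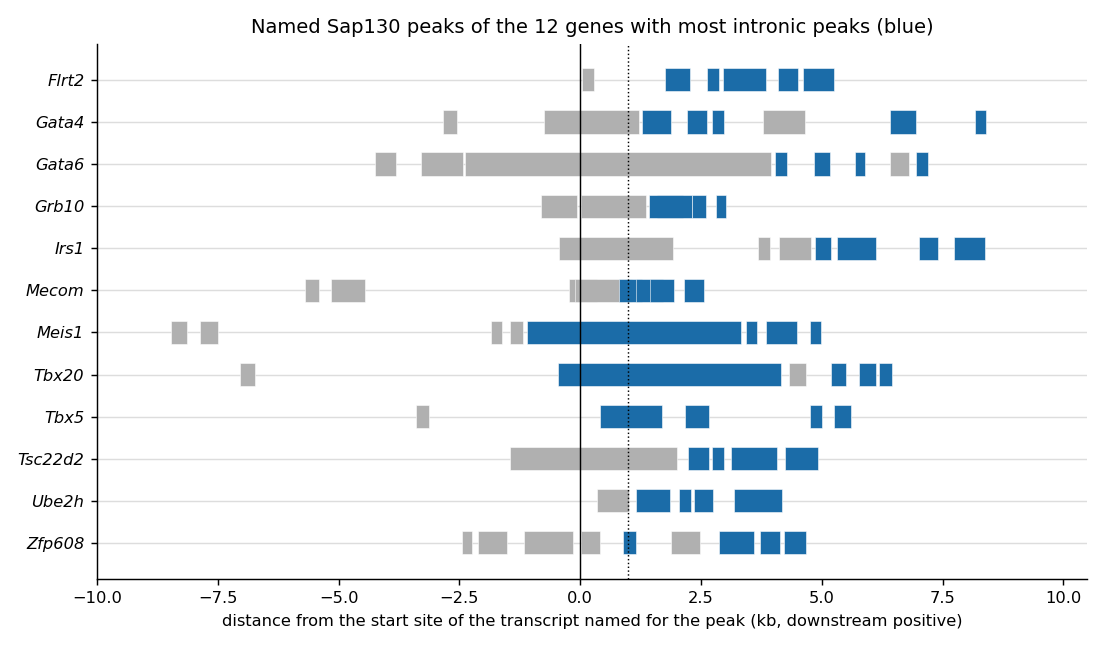
Named peaks of the 12 genes with the most intronic peaks, drawn to width by distance from the named start site (x axis, kb, downstream positive); intronic peaks are blue, all others grey, and the dotted line marks 1 kb. Flrt2 and Gata4 have 5 blue peaks and the other genes 4, many less than 500 bp apart; in Grb10 and Mecom the peaks are named for different starts of the gene, so those drawn side by side need not be neighbours.

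The genes with an intronic peak were described by 19 gene lists, of which 180 genes had one. The lists were chosen with results of these data known, and their shares are descriptions with no test. Among all 11031 protein-coding genes with a named peak, 928 (8.41%, 7.90 to 8.95) had an intronic peak. Of the lists with at least 10 such genes, the contractile apparatus had the highest share, 22 of 32 genes (68.8%, 50 to 83.9), then cardiac ion channels and calcium handling with 14 of 27 (51.9%, 31.9 to 71.3) and cardiac transcription factors with 21 of 43 (48.8%, 33.3 to 64.5). At the other end were cell cycle genes with 6 of 55 (10.9%), cytosolic ribosomal protein genes with 5 of 68 (7.35%), neuronal genes with 1 of 20 (5%) and oxidative phosphorylation genes with 0 of 51, which allows a share of up to 6.98%. The intron sequence 1 to 10 kb downstream came to 7 kb per contractile gene, 7.59 per cardiac transcription factor gene, 5.22 per oxidative phosphorylation gene and 7.34 over all protein-coding genes. Ribosomal protein genes had 1.72 kb each, in which their 5 intronic peaks came to 42.8 per Mb of intron (13.9 to 99.8). The lower bound equals the rounded density over all protein-coding genes, 13.9. Of their 0.117 Mb of intron, 0.0836 Mb lay 1 to 3 kb downstream. There the density was 59.8 per Mb, against 45.9 over all protein-coding genes. Per Mb of intron there were 156 intronic peaks (109 to 217) in contractile genes, 141 (103 to 188) in cardiac transcription factor genes, 68.4 (39.9 to 110) in the channel genes and 13.9 (13.1 to 14.7) over all. Endothelial genes with 68.6 (37.5 to 115) and immediate early genes with 67.1 (38.4 to 109) had densities like that of the channel genes over this range. In oxidative phosphorylation genes the density was 0, with an upper bound of 13.8. Between 1 and 3 kb downstream, densities were 505 per Mb in contractile, 314 in cardiac transcription factor and 299 in channel genes. They were 257 in endothelial and 199 in immediate early genes, against 45.9 over all protein-coding genes. There the transcription factor genes lay closer to the channel genes than to the contractile genes, and immediate early genes lay below the channel genes. These nearer densities carry no interval. At least 3 named peaks, the intronic ones included, were found in 20 of the 43 transcription factor genes and 14 of the 32 contractile genes, against 654 of the 11031.

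**Figure D5:**
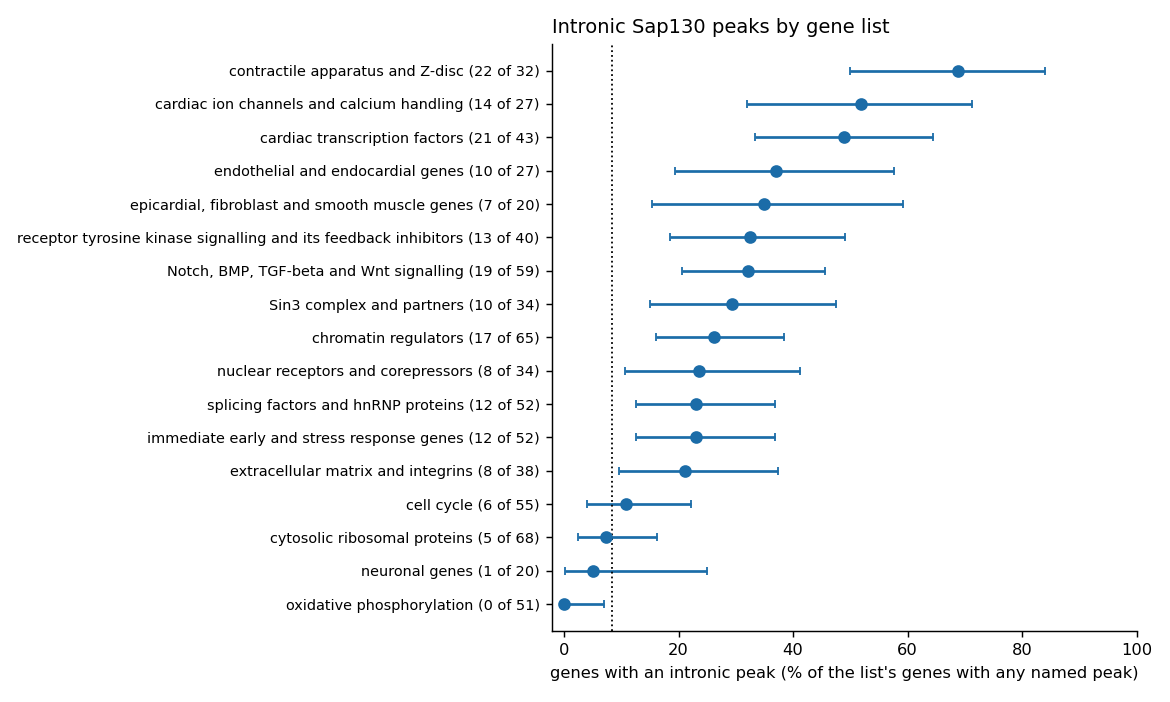
Share of each list's genes with any named peak that have an intronic peak (x axis, %), with 95% exact Clopper-Pearson intervals as bars and the counts beside each list (y axis); the dotted line is the share over all protein-coding genes, 8.41%. The 3 cardiac lists at the top lie between 48.8% and 68.8%, and oxidative phosphorylation at 0.

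The 22 contractile and Z-disc genes carried 35 intronic peaks, with a median width of 445 bp and a median position of 14070. Filamin C (Flnc), an actin cross-linker of the Z-disc, came first at position 5847, with a 3025 bp peak centred 1392.5 bp downstream that was its only named peak. Next were Mybpc3, cardiac myosin-binding protein C (9021, 1953 bp wide), Tnnt2, cardiac troponin T (10551, 1057 bp) and Tpm1, alpha-tropomyosin (10570, 1470 bp). Actc1 and Myl2, named after their values were seen because they had the most in the list, had 3 each. In Actc1, cardiac actin, they lay at 1576.5, 2631.5 and 3671 bp in introns 2, 3 and 5. In Myl2, the ventricular regulatory light chain, they lay at 1560.5, 2266.5 and 3493.5 bp in introns 2, 3 and 4. The others were Tnni1, Tnni3, Myl3, Myl7, Myh6, Myh7b, Ttn, Myom1, Actn2, Ldb3, Csrp3, Lmod2, Pdlim3, Synpo2l, Xirp1 and Ankrd1, with 1 or 2 each. A promoter peak accompanied the intronic peak in 20 of the 22, the exceptions being Flnc and Synpo2l. The Flnc peak itself covered the named start, and 1 of the 2 in Synpo2l held a second start of the gene.

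The 21 cardiac transcription factor genes carried 46 intronic peaks, with a median width of 353 bp. First in the table were Zfpm1 (Friend of GATA, position 4724, 3041 bp wide), Hand2 (5506, 2151 bp), Tbx20 (7561) and Meis1 (7835). Hand2, a bHLH factor of the right ventricle, had 10 named peaks, the most of any gene with an intronic peak. Zfpm1 and Tbx18, an epicardial T-box factor, had no other named peak. Besides Gata4, Gata6, Tbx5, Tbx20 and Meis1, genes with 2 or 3 included Meis2, Rara, Mef2d, Nkx2-5 and Sall4. In Nkx2-5, an early marker of cardiac progenitors, which is named here after its values were seen, peaks of 474 and 259 bp lay at 1075 and 1580.5 bp, both in the 1377 bp first intron. A promoter peak accompanied the intronic peak in 15 of the 21. Zfpm1, Tbx20, Meis1, Tbx18 and Tbx5 were among those without one, although the intronic peaks of Zfpm1, Tbx20, Meis1 and Tbx18 covered the start.

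Channel and calcium handling genes had 17 intronic peaks, all within 3 kb of the start. Ryr2 came first, then Kcnh2, a potassium channel, with 2 peaks (the first at position 8407, 892 bp wide), Cacna1c, the L-type calcium channel of cardiac muscle (9662, 1242 bp), and Camk2d, a calmodulin-dependent kinase (13798, 285 bp). Slc8a1, the sodium-calcium exchanger, and Pln, the brake on the sarcoplasmic calcium pump, had 2 each.

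By share of genes, the signalling lists lay between the cardiac lists and the whole. Of Notch, BMP, TGF-beta and Wnt genes 19 of 59 (32.2%, 20.6 to 45.6) had an intronic peak, first among them Ski (position 2202, 3133 bp), Smad6 (4273), Hes1, a Notch effector (4596, 2258 bp), and Smad7, a second inhibitory SMAD (5421, 2698 bp). Receptor tyrosine kinase signalling had 13 of 40 (32.5%, 18.6 to 49.1), with the receptors Fgfr2 (position 4574, 1665 bp) and Erbb4 (4637, 3467 bp) and the feedback inhibitors Spry2 (6818, 3511 bp) and Dusp6 (7732, 2546 bp) first. Of these leading peaks, those of Ski, Smad6, Hes1, Erbb4, Spry2 and Dusp6 covered the named start, and that of Fgfr2 began 208 bp past it. Endothelial and endocardial genes had 10 of 27 (37.0%, 19.4 to 57.6), led by the semaphorin and VEGF co-receptor Nrp2 (7931, 1563 bp), Mecom (8067, 459 bp), the angiopoietin receptor Tek (13742, 329 bp) and the endothelial cadherin Cdh5 (14411, 446 bp). Epicardial, fibroblast and smooth muscle genes had 7 of 20 (35.0%, 15.4 to 59.2), led by Tbx18, Sparc, Col1a1 and Pdgfra. All of these shares have intervals above the 8.41% of all protein-coding genes. So do those of the cardiac lists and of the Sin3, chromatin, immediate early, splicing, nuclear receptor and matrix lists. The lists were chosen with results known, so this describes them and is no test.

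Genes for Sin3 subunits and partner factors numbered 34 with a named peak, of which 10 (29.4%, 15.1 to 47.5) had an intronic peak. The first was that of Phf12, a Sin3-associated PHD protein (position 3607, 1840 bp), before the MXD family repressor Mxi1 (5434, 2464 bp), the related repressor Mnt (6154, 1385 bp) and Sin3a, the scaffold itself (7129, 1126 bp). The median position of these 10 was 8397 and their median width 1146 bp, against 13943 and 368 bp over all protein-coding genes. With 10 peaks these medians are rough, and other lists differed from the whole too, in either direction. Chromatin regulators had 10498 and 555 bp, receptor tyrosine kinase genes 10796 and 769 bp, and ribosomal protein genes 14924 and 252 bp. Chromatin regulators had 17 of 65 (26.2%, 16 to 38.5), led by Arid1a (2983, 1398 bp), the histone H3 lysine 27 demethylase Kdm6b (3903, 3395 bp), Nsd1 (4895, 1473 bp) and Setd1b (5446, 629 bp). The 6 cell cycle genes were E2f3, Ccnd1, Ccnd3, Cdkn1b, E2f5 and E2f1. First was the E2f3 peak, at position 4450, which covered the named start.

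Immediate early genes and splicing factors had the same share, 12 of 52 (23.1%, 12.5 to 36.8). Among the former, Csrnp1 (position 4613, 1379 bp), Klf6 (9148, 1952 bp), Fosb (9676, 891 bp) and Klf13 (11349, 414 bp) came first, and among the latter Hnrnpu (230, 3503 bp), Luc7l2 (6811, 931 bp), Srrm2 (11913, 595 bp) and Mbnl1 (12006, 679 bp). Nuclear receptors and their corepressors had 8 of 34 (23.5%, 10.7 to 41.2), with the coactivator Ppargc1b (4843, 770 bp) first. Extracellular matrix and integrin genes had 8 of 38 (21.1%, 9.55 to 37.3), with the proteoglycan Vcan (6643, 1310 bp) first. The 1 neuronal gene was Elavl3 (11224, 362 bp). Hox genes, with 7 genes that had a named peak, and liver, blood and skeletal muscle genes, with 4, had 0, which allows up to 41.0% and 60.2%.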

How the data were processed

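The authors deposited 1 table of peak positions. The tools named in the submitters' processing notes are Bowtie 1.1.2, which aligns reads, and MACS2 2.1.0.20140616, which calls peaks, with the builds GRCm38 and mm10. Thresholds, duplicate handling and the source of the transcript columns are not stated in the sources used here, and each could change the number, width and splitting of peaks. Depth per library is unknown. Transcript spans in the table start from 0, so 1 was added to give each start site.

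Each peak's midpoint was placed against the exons of its named transcript, and genes were matched to RefSeq (GRCm38.p6) by accession, then symbol or synonym. Promoter, upstream and exonic peaks served as comparison. Densities divide peak counts by the sequence of each kind in the named transcripts, per bin of 1000 bp. Placement was tested on simulated data with planted peaks. With 1 ChIP and 1 input library no test was run.

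The members and lists were chosen with earlier results of these data known. Named genes are the first 10 and the 8 widest, up to 12 genes with the most peaks, up to 4 per list by table order, the 3 on each side of the limit, the 3 farthest, the 5 widest over a start and the first 5 with no promoter peak. Some genes of the lists are not reported here. Alternatives were limits of 500 and 2000 bp, peaks clear of exons or starts, positions counted from 0, the first 8348 positions, protein-coding genes, autosomes, joined peaks and no other named start nearby. Python 3.11.15, pandas 2.3.3, NumPy 2.4.6, SciPy 1.17.1 and matplotlib 3.10.9 were used.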

Additional observations from a re-analysis of the deposited data

How the results depend on the processing

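Of 90 recomputed values, 10 results under 9 alternatives, 56 moved by less than their interval (counts by less than 1.5 times) and 34 by more. The alternatives for the 3 gene-list shares were chosen after seeing the data. With positions counted from 0, protein-coding genes only, or autosomes only, no value moved further. Leaving out midpoints near another named start removed 0 peaks and so tested nothing.

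A limit of 500 bp, which narrows the promoter window too, gave 2439 intronic peaks with a median width of 567 bp, 86.9% in the first intron, 55.1% in genes with a promoter peak, 27.1% over the start, a median position of 11525, 315 genes with 2 or more, and 18% of protein-coding genes. A limit of 2000 bp gave 445 peaks, 68.3% in the first intron, 0.225% over the start, 56 genes with 2 or more, and 37.5% of contractile, 30.2% of cardiac transcription factor and 3.23% of all protein-coding genes. Peaks clear of exons had a median width of 336 bp, 83.9% in the first intron, 90.3% with a promoter peak, 0% over the start, a median position of 14274 and 7.17% of protein-coding genes. Leaving out peaks over the start gave 0% there by construction. The first 8348 positions of the table, with both peaks and genes counted there alone, gave 159 peaks with a median width of 1421 bp, 45.3% with a promoter peak, 30.8% over the start, a median position of 4908, 0 genes with 2 or more, and 20% (0.505 to 71.6) of contractile, 21.7% (7.46 to 43.7) of cardiac transcription factor and 2.1% of all protein-coding genes. The contractile share there rests on so few genes that its interval spans most values. Joining intronic peaks of a gene under 500 bp apart gave a median width of 399 bp, a median position of 13676 and 65 genes with 2 or more.

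No paired analysis was possible because the study has 1 ChIP and 1 input library. Without read counts, what depth limits could not be given for any peak. Genes are named by the authors' transcript, 1 per peak.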

Other observations

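Long non-coding RNA genes held 26 intronic peaks, with a median width of 406 bp, a median position of 13446 and a median distance of 2184 bp, and 14 of the 26 (53.8%, 33.4 to 73.4) were in a gene that also had a promoter peak. The genes that follow were named after their values were seen. The first in the table was that of Gt(ROSA)26Sor, the Rosa26 locus widely used for transgenes, at position 3278, 1107 bp wide and centred 1172.5 bp downstream. Airn, the imprinted antisense transcript of the Igf2r locus, had 2, at 1197 and 2730 bp, with widths of 2300 and 412 bp. Ftx, a non-coding gene of the X-inactivation centre, had 3, at 1137.5, 6611.5 and 7171.5 bp.

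Outside chromosome 18, mature microRNA sequences lay whole inside 3 intronic peaks. These were the 5p and 3p arms of Mir7655 in Mllt10 and of Mir7687 in Gse1, and the 3p arm of Mir7660 in Cand2. By chromosome, the share of peaks that were intronic ran from 5.56% (3.94 to 7.58) on chromosome 13 to 10.2% (7.63 to 13.3) on chromosome 18.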
